A study of Mus musculus with 9 samples.

Results

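The genes described here are 9 integrin subunits and 1 further surface receptor, measured in RNA of cells sorted as tumour macrophages. They were taken by gene symbol from a table of 18042 genes. The integrins are Itgam, Itgax, Itgal, Itga4, Itga8, Itgav, Itgb1, Itgb2 and Itgb5, and the further receptor is Adgre1. Itgam encodes CD11b and Adgre1 encodes F4/80, the surface proteins by which the cells were sorted. All 10 genes passed the filter on low counts and were tested with 13090 genes in all.

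RNA was sequenced from CD11b+ F4/80+ cells sorted by flow cytometry from tumours of MC38, a mouse colon carcinoma line. Wild-type female C57BL/6 mice, 6 to 8 weeks old, received 1000000 MC38 cells under the skin and were divided into groups on day 9. IN@OMVs and OMVs tumours were injected with vesicles at 12.5 µg of vesicle protein per mouse, or 625 µg per kg of body weight. Control tumours received an equal volume of the solvent, which the labels give as PBS. Each of the 3 groups held 3 libraries. The labels spell out neither OMVs, which commonly stands for the outer membrane vesicles that bacteria release, nor IN. The time from injection to harvest, and whether a library came from 1 mouse or a pool, are not given in the sources used here, so the p-values measure the spread between these libraries.

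Integrins are receptors for matrix, for other cells and for opsonised particles, each made of an α and a β chain. The β2 integrins are those of leukocytes: the Itgb2 chain pairs with Itgal to form LFA-1, with Itgam to form Mac-1 (complement receptor 3) and with Itgax to form p150,95 (complement receptor 4). Itgb1 pairs with Itga4 in VLA-4, which binds VCAM-1 and fibronectin, and with Itga8 in a receptor for nephronectin and other ligands with an RGD motif. Itgav pairs with Itgb5, among other β chains, to bind vitronectin, and Adgre1 belongs to the EGF-TM7 family of adhesion G protein-coupled receptors and is a defining marker of mouse macrophages.

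Itga8 mRNA was higher in IN@OMVs than in OMVs, and higher in both than in Control, and it was the 1 gene of the 10 that passed the test in each comparison. Itgam mRNA was lower in every IN@OMVs library than in any OMVs or Control library, by a size that narrowly missed the threshold against Control. Adgre1, Itgal, Itga4, Itgb2 and Itgb5 overlapped between all groups. The test was edgeR's quasi-likelihood test over all 9 libraries, with p-values adjusted by the Benjamini-Hochberg method over the 13090 genes and a threshold of 0.05. For IN@OMVs against Control 1 of the 10 genes was called, against 6.55% of all tested genes: 1 higher (3.32% of all genes) and 0 lower (3.24%). For OMVs against Control 1 was called, against 0.42% of all tested genes: 1 higher (0.298%) and 0 lower (0.122%). For IN@OMVs against OMVs 1 was called, against 2.85%: 1 higher (1.1%) and 0 lower (1.75%). At an unadjusted p under 0.05, 5 of the 10 stood in IN@OMVs against Control (19.8% of all genes), 3 of them lower. By the same measure 1 stood in OMVs against Control (8.44%), which was higher, and 3 in IN@OMVs against OMVs (14.4%), 2 of them lower. DESeq2 called 3 of the 10 between IN@OMVs and Control, 1 between OMVs and Control and 2 between IN@OMVs and OMVs. Of all genes it called 1184, 207 and 646 in these comparisons, where edgeR called 858, 55 and 373. By limma-voom 2, 0 and 1 of the 10 were called, and 830, 36 and 353 of all genes. The median log2 fold change of the 10 genes was -0.113 in IN@OMVs against Control, 0.0305 in OMVs against Control and -0.127 in IN@OMVs against OMVs, beside -0.00241, -0.000488 and -0.00348 for all tested genes. Both comparisons against Control use the same 3 Control libraries.

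**Figure D1:**
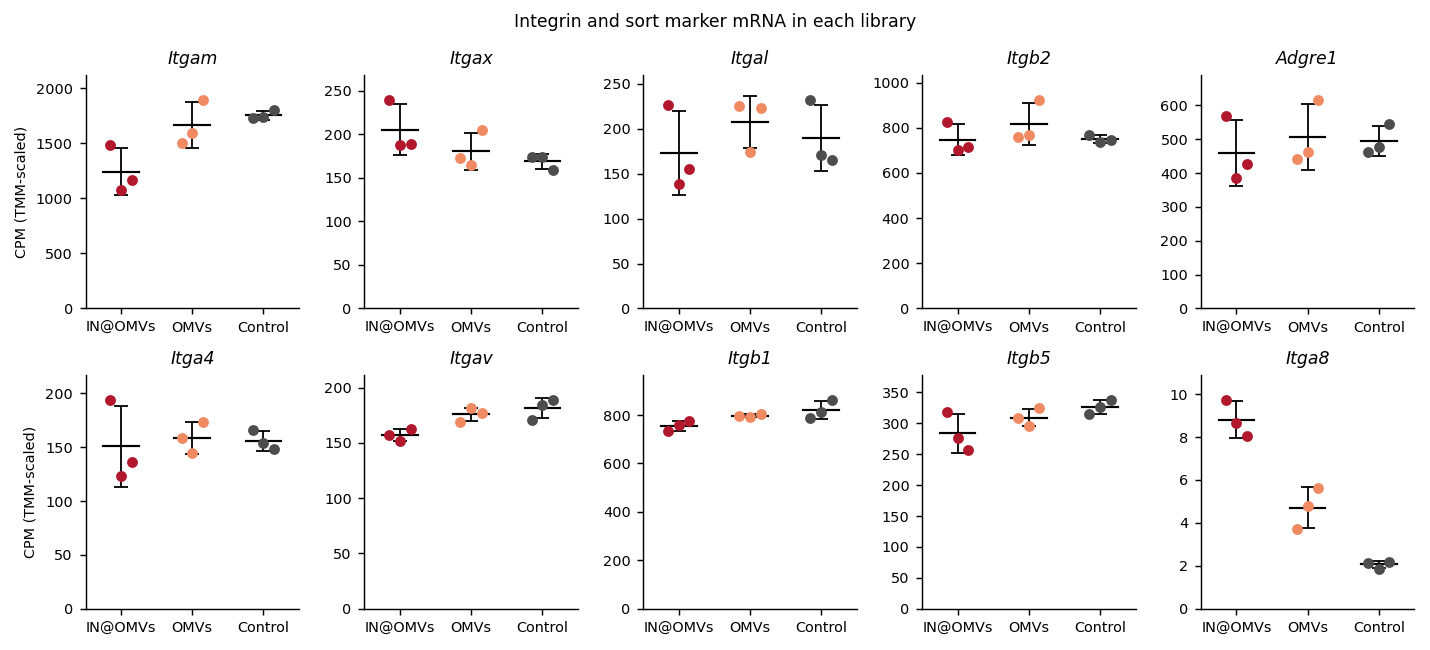
Level of each of the 10 genes in each library, in CPM (counts per 1000000 counts in tested genes, scaled by TMM factors) on linear axes from 0, with IN@OMVs, OMVs and Control from left to right; points are libraries, long bars are means and short bars are the SD over 3 libraries. Itga8 steps down through the 3 groups without overlap, Itgam lies lower in IN@OMVs, and the remaining panels show smaller or overlapping differences.

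The libraries were of nearly equal depth, with 16813230 to 17288322 expected counts each. The counts of single genes ranged from 18933 to 31733 for Itgam and from 32 to 158 for Itga8, so relative counting error was largest for Itga8. The 10 macrophage markers were detected in all 9 libraries, with mean levels of 9.71 to 10.22 in IN@OMVs, 9.67 to 10.08 in OMVs and 9.75 to 9.89 in Control on the log2 CPM scale. Of these 10, Cd14 was called lower in IN@OMVs than in Control (log2 fold change -1.07, adjusted p 0.0012 by edgeR) and than in OMVs (-0.93, adjusted p 0.00497), and the other 9 were not called. Among markers of other cell types, 8 of 9 for neutrophils and 5 of 8 for monocytes were called lower in IN@OMVs than in Control. The share of all tested genes was 3.24%. In OMVs against Control 0 of the neutrophil and 2 of the monocyte markers were called lower, against 0.122% of all genes. Whether these transcripts came from other cells or from the macrophages themselves was not tested. The summed neutrophil markers lay at 129 to 195.5 CPM in IN@OMVs, 560.3 to 744.7 CPM in OMVs and 785.2 to 1149 CPM in Control, and Camp was at 0 in 1 IN@OMVs library and Ngp in another. IN@OMVs 1 stood apart from the other libraries of its group, with mean fibroblast markers of 4.71 on the log2 CPM scale, against 6.37 to 7.18 in the other 8 libraries. Results that rest on it are therefore also given without it, or without library 1 of all 3 groups.

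Per kilobase of transcript, Itgam was the most abundant of the 10 in Control at 377 ± 8.41 CPM per kb (SD, n = 3), followed by its β partner Itgb2 at 252 ± 5.42 and Itgb1 at 215 ± 9.92. Adgre1 followed at 153 ± 13.7, Itgb5 at 99.5 ± 3.53, Itgax at 41.8 ± 2.16 and Itgal at 36.5 ± 7.16 CPM per kb. Itgax and Itgal did not differ beyond their spread in that order. Itgav at 25.7 ± 1.31, Itga4 at 16.0 ± 0.924 and Itga8 at 0.356 ± 0.0297 CPM per kb came last. In IN@OMVs Itgam was at 267 ± 45.3 CPM per kb and Itgb2 at 252 ± 22.8, which did not differ beyond their spread. Among the α partners of Itgb2, the sort marker Itgam was thus the most abundant per length in each group, with Itgax at 50.8 ± 7.36 in IN@OMVs, 44.6 ± 5.24 in OMVs and 41.8 ± 2.16 CPM per kb in Control. Itga8 was the least abundant of the 10 in each group, at 1.52 ± 0.148 in IN@OMVs, 0.810 ± 0.162 in OMVs and 0.356 ± 0.0297 CPM per kb in Control.

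Itgam, the α chain of Mac-1, had 1479.5, 1079.7 and 1165 CPM in IN@OMVs, 1501, 1592 and 1896 CPM in OMVs and 1726, 1735 and 1798 CPM in Control. All 3 IN@OMVs libraries lay below all the others, IN@OMVs 1 only just, while OMVs and Control overlapped. Its log2 fold change (a difference between group means) in IN@OMVs against Control was -0.50 ± 0.13 (SE), with a 95% interval of -0.78 to -0.21 and an adjusted p of 0.0512 by edgeR. Against OMVs it was -0.42 ± 0.13 with an adjusted p of 0.147, and in OMVs against Control -0.08 ± 0.13 with an adjusted p of 0.980. The call depended on 1 library and on the tool. Without IN@OMVs 1, Itgam was called lower against Control at -0.65 (adjusted p 0.00144 by edgeR) and against OMVs at -0.57 (adjusted p 0.00541). Without library 1 of all 3 groups the values were -0.66 and -0.64, with adjusted p of 0.00113 and 0.00203. With all libraries DESeq2 called it lower against Control (adjusted p 0.00264) and against OMVs (0.0265), and limma-voom called it against Control (0.0476), as did edgeR after a filter of 5 CPM on average (0.0274). Because the cells were sequenced in bulk, fewer cells of a type and less RNA per cell cannot be told apart. Across the 9 libraries Itgam correlated with the mean of the neutrophil markers at r = 0.888 and of the monocyte markers at r = 0.828, over libraries that share their groups. Neutrophils and monocytes also carry CD11b, and their part in the Itgam difference was not tested.

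Adgre1, which encodes F4/80, had 567.5, 384 and 425.6 CPM in IN@OMVs, 440.6, 461.5 and 617 CPM in OMVs and 462, 476 and 545 CPM in Control. The 3 groups overlapped and the spread within IN@OMVs and OMVs exceeded any difference between means. The log2 fold changes were -0.11 ± 0.17 in IN@OMVs against Control, 0.03 ± 0.17 in OMVs against Control and -0.14 ± 0.17 in IN@OMVs against OMVs, with adjusted p of 0.795, 0.9999 and 0.785 by edgeR. The 95% interval against Control ran from -0.49 to 0.27. Without IN@OMVs 1 the log2 fold change was -0.29 against Control (adjusted p 0.194 by edgeR) and -0.32 against OMVs (0.220). Adgre1 was highest in IN@OMVs 1 and OMVs 3, which also had the highest macrophage marker means, 10.22 and 10.08 on the log2 CPM scale, and over all 9 libraries it correlated with that mean at r = 0.866. Both sort markers were selected as proteins on the cell surface, so their presence in every library is a property of the sort.

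The upstream promoter windows of Itga8, the gene that changed in each comparison, and of Itgam and Itgax, whose ratio to one another separated the groups, are shown for their sequence context. RefSeq promoter windows (GRCm38.p6) were at hand for 7 of the 10 genes, and each line holds the 250 bases before the annotated start, 5′ to 3′ on the gene's strand, with motif matches in capitals. The windows are chr2:12301945-12302194 (minus strand), chr7:128062390-128062639 (plus strand) and chr7:128129300-128129549 (plus strand).
Itga8: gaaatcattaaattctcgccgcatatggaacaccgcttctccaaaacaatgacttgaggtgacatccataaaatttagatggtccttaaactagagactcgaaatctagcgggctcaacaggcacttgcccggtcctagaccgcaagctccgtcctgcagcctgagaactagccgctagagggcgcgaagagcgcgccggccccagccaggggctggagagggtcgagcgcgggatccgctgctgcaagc
Itgam: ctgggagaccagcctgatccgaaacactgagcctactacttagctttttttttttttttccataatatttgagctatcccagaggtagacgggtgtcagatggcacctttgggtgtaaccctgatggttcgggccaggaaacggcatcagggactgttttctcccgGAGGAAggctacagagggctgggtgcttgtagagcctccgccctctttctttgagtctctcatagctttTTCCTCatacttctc
Itgax: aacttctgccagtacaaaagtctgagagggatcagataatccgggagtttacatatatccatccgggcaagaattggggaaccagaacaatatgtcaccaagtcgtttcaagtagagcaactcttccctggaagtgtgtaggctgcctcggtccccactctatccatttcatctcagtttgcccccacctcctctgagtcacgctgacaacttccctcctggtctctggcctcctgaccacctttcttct
The letters searched on both strands were GAGGAA, the core bound by the myeloid factor PU.1, GAAANNGAA, the core of an interferon-stimulated response element, and TTCNNNGAA, a gamma-activated site bound by STAT factors. GAGGAA occurred in 23.3% of 32851 promoter windows of the same length, GAAANNGAA in 7.13% and TTCNNNGAA in 7.02%. The Itgam window held 2 matches to GAGGAA, starting 84 and 15 bases before the annotated start, the second on the other strand. Itgav also held 2 matches to GAGGAA and 1 to GAAANNGAA, Itgb1 held 1 to GAGGAA, and no matches overlapped. The windows of Itga8, Itgax, Itga4 and Itgb5 held no match to any of the 3 motifs, which says only that these letters are not in these 250 bases.

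Itga8, an α chain best known from mesenchymal cells of the kidney and other organs, had 9.73, 8.67 and 8.03 CPM in IN@OMVs, 3.73, 4.78 and 5.62 CPM in OMVs and 2.15, 1.87 and 2.19 CPM in Control. The rounded counts behind these levels were 158, 152 and 138 for IN@OMVs, 65, 82 and 94 for OMVs and 36, 32 and 38 for Control. The 3 groups did not overlap: IN@OMVs was highest, OMVs intermediate and Control lowest. Its mean was 8.81 ± 0.858 CPM in IN@OMVs, 4.71 ± 0.943 CPM in OMVs and 2.07 ± 0.173 CPM in Control (SD, n = 3 each). The log2 fold change in IN@OMVs against Control was 2.09 ± 0.18, a 4.25-fold difference, with an adjusted p of 0.000344 by edgeR. That call held under all 18 alternatives run, with an adjusted p of at most 0.00355.

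Itga8 also rose in OMVs against Control, by 1.18 ± 0.18 on the log2 scale, 2.27-fold, with an adjusted p of 0.0382 by edgeR. With the replicate number as a block, the adjusted p was 0.118 and 20 genes in all were called in place of 55. The call was also lost without any single library other than IN@OMVs 1 or OMVs 1, at adjusted p of 0.0768 without IN@OMVs 2, 0.0847 without IN@OMVs 3, 0.236 without OMVs 2 and 0.144 without OMVs 3. Without Control 1, 2 or 3 it was 0.128, 0.242 or 0.194, and by limma-voom it was 0.0803. The log2 fold change itself stayed between 1.04 and 1.35 under every alternative. At the same vesicle protein dose, Itga8 rose in IN@OMVs against OMVs by 0.90 ± 0.17, 1.87-fold, with an adjusted p of 0.0259 by edgeR. This call was lost without IN@OMVs 2 (0.0687), IN@OMVs 3 (0.0660), OMVs 1 (0.0841), OMVs 2 (0.104) or Control 3 (0.0554). It was also lost in a fit of only these 2 groups (0.0926) and with the replicate number as a block (0.0584). The log2 fold change was 0.76 to 1.05 with each library left out in turn. Without library 1 of all 3 groups it was 0.68 (adjusted p 0.0392 by edgeR).

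Markers of mesenchymal cells, in which Itga8 is known, are given beside these values, and the part of such cells in the Itga8 level was not tested. The summed CPM of 7 smooth muscle or pericyte markers was 51.18 to 111.4 in IN@OMVs, 77.3 to 107.5 in OMVs and 87.14 to 99.16 in Control, and 0 of the 7 were called in any comparison by edgeR. The summed CPM of 9 fibroblast markers was 1464 to 4677 in IN@OMVs, 3441 to 4509 in OMVs and 4199 to 5845 in Control. IN@OMVs 1, which had the lowest fibroblast sum, had the highest Itga8 level of the 9 libraries. Across the 9 libraries Itga8 correlated with the macrophage marker mean at r = 0.301 and with the neutrophil marker mean at r = -0.862, and with the monocyte marker mean at r = -0.942; the neutrophil and monocyte means were lowest in IN@OMVs. Their part in the Itga8 level was not tested either.

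**Figure D2:**
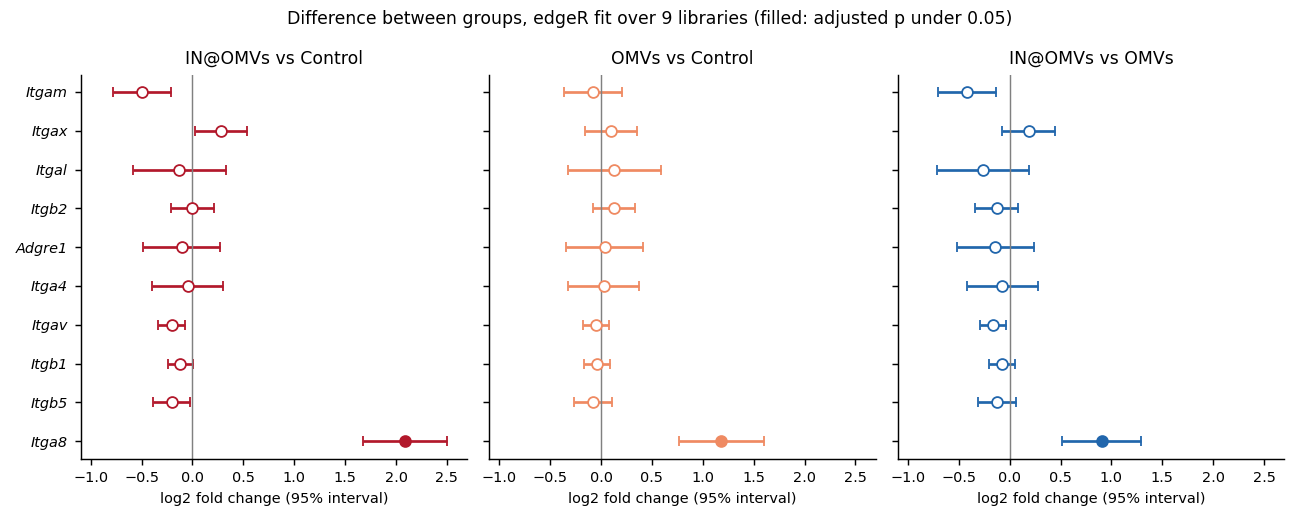
Log2 fold change of each gene with its 95% interval from the edgeR fit, in IN@OMVs against Control, OMVs against Control and IN@OMVs against OMVs; filled points have an adjusted p under 0.05. Itga8 is the filled point in each panel, at 2.09, 1.18 and 0.90.

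Among the remaining β2 integrin chains, Itgax, the α chain known as CD11c, had 239.8, 187.3 and 189.2 CPM in IN@OMVs, 172.3, 164.9 and 204.7 CPM in OMVs and 173.9, 174.3 and 159.0 CPM in Control. IN@OMVs lay above Control in all libraries and overlapped OMVs. Its log2 fold change was 0.28 ± 0.11 in IN@OMVs against Control (95% interval 0.02 to 0.54), with an adjusted p of 0.209 by edgeR. It was 0.19 ± 0.11 against OMVs (adjusted p 0.532) and 0.10 ± 0.11 in OMVs against Control (adjusted p 0.943). Without IN@OMVs 1 its log2 fold change was 0.15 against Control (adjusted p 0.310 by edgeR) and 0.06 against OMVs (0.780). CD11c is also carried by dendritic cells. Of 9 conventional dendritic cell markers, 2 (Clec9a and Batf3) were called higher in IN@OMVs than in Control, against 3.32% of all tested genes. The Batf3 call was lost without IN@OMVs 3 or any 1 of the Control libraries (adjusted p of at most 0.0674 by edgeR). The summed CPM of the 9 was 86.65 to 113.3 in IN@OMVs, 88.23 to 118.1 in OMVs and 97.55 to 117.9 in Control. The mean level of the 9 markers on the log2 CPM scale, in which low genes weigh as much as high ones, was 2.45 to 2.78 in IN@OMVs, 2.08 to 2.24 in OMVs and 2.17 to 2.53 in Control. Itgax correlated with this mean at r = 0.609 over the 9 libraries. The part of dendritic cells in the Itgax level was not tested.

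Itgb2, the β chain that all 3 of these α chains need, had 825.7, 702.5 and 715.2 CPM in IN@OMVs, 760.5, 768.5 and 924.5 CPM in OMVs and 767.3, 735.8 and 745.4 CPM in Control. The groups overlapped, with a log2 fold change of -0.00 ± 0.09 in IN@OMVs against Control (95% interval -0.21 to 0.21) and an adjusted p of 0.990. Itgal, the α chain of LFA-1, had 226.5, 138.8 and 154.8 CPM in IN@OMVs, 225.2, 174.6 and 222.9 CPM in OMVs and 232.5, 171.1 and 165.4 CPM in Control. These also overlapped, with a log2 fold change of -0.13 ± 0.20 in IN@OMVs against Control, an adjusted p of 0.794 and the widest interval of the 10 genes, from -0.58 to 0.33. Library 1 was the highest for Itgal in each group, and the mean of 11 T cell markers was likewise highest there, at 4.31 for IN@OMVs 1, 4.12 for OMVs 1 and 4.35 for Control 1 on the log2 CPM scale, against 1.93 to 3.11 in the other 6 libraries. LFA-1 is abundant on T cells, and their part in the Itgal level was not tested. Without library 1 of all 3 groups, Itgal was called lower in IN@OMVs than in OMVs at -0.44 (adjusted p 0.0304 by edgeR), a setting chosen after the data had been seen.

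Within each library the ratio of Itgax to Itgam counts, which does not depend on the library total, separated the groups. The log2 ratio was -2.63, -2.53 and -2.62 for IN@OMVs, -3.12, -3.27 and -3.21 for OMVs and -3.31, -3.32 and -3.50 for Control, without overlap. The mean difference was 0.78 in IN@OMVs against Control, 0.61 in IN@OMVs against OMVs and 0.17 in OMVs against Control. Each had p = 0.1 in a two-sided exact permutation test, the smallest that 3 libraries against 3 allow. The log2 ratio of the sort markers, Adgre1 to Itgam, was -1.38, -1.49 and -1.45 for IN@OMVs, -1.77, -1.79 and -1.62 for OMVs and -1.90, -1.87 and -1.72 for Control. IN@OMVs lay above all other libraries, by 0.39 against Control and 0.28 against OMVs (exact permutation p = 0.1 each), while OMVs and Control overlapped with a difference of 0.10 (exact permutation p = 0.3). IN@OMVs 1, apart in its Itgam and Adgre1 levels, lay with the other IN@OMVs libraries in both ratios. A ratio shows unequal levels of a pair of genes and not which of them moved.

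**Figure D3:**
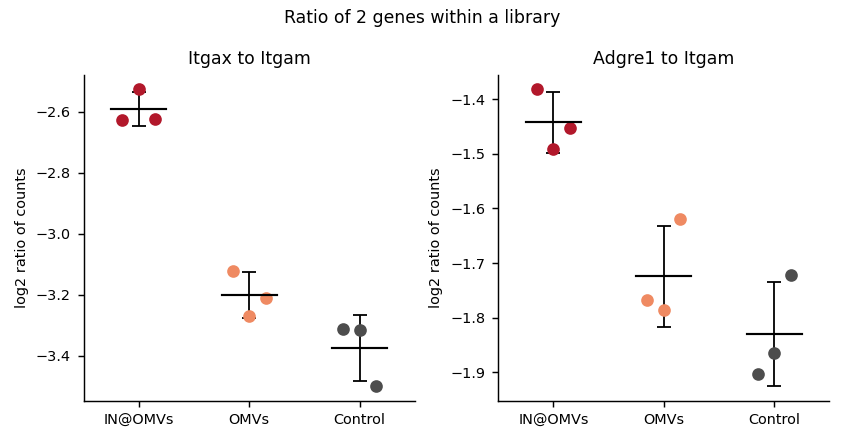
Log2 ratio of Itgax to Itgam counts (left) and of Adgre1 to Itgam counts (right) in each library, with IN@OMVs, OMVs and Control from left to right; points are libraries, long bars are means and short bars are the SD over 3 libraries, and the axes do not start at 0. The IN@OMVs libraries lie above all OMVs and Control libraries in both panels, and OMVs and Control overlap in the right one.

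Itgav and Itgb1 were lower in every IN@OMVs library than in any other, by small amounts that did not pass the test. Itgav, the α chain of several vitronectin and fibronectin receptors, had 157.6, 152.1 and 162.6 CPM in IN@OMVs, 169.3, 181.6 and 176.7 CPM in OMVs and 171.2, 184.7 and 188.9 CPM in Control. Its log2 fold change was -0.21 ± 0.06 in IN@OMVs against Control, with an adjusted p of 0.0681 by edgeR, 0.00975 by DESeq2, 0.0400 by edgeR after the filter of 5 CPM and 0.0260 by edgeR without library 1 of all 3 groups. Against OMVs it was -0.16 ± 0.06 (adjusted p 0.229). Itgb1, the most widely shared β chain, had 735, 758.6 and 774.6 CPM in IN@OMVs, 794.8, 792.8 and 805.5 CPM in OMVs and 788.8, 811.5 and 862.7 CPM in Control. Its log2 fold change was -0.12 ± 0.06 in IN@OMVs against Control (95% interval -0.24 to 0.01, adjusted p 0.281), and it varied least of the 10 genes, with an SD of 0.0648 on the log2 scale over all 9 libraries.

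Itgb5, a β partner of Itgav, had 317.7, 276.9 and 256.2 CPM in IN@OMVs, 308.4, 295.4 and 324.2 CPM in OMVs and 314.7, 327 and 337.8 CPM in Control. IN@OMVs 1 lay within the range of Control and the other 2 IN@OMVs libraries below all Control and OMVs libraries. Its log2 fold change in IN@OMVs against Control was -0.20 ± 0.08 with an adjusted p of 0.204 by edgeR, and -0.30 with an adjusted p of 0.0144 without IN@OMVs 1. Itga4, the α chain of VLA-4, had 193.9, 123.2 and 135.9 CPM in IN@OMVs, 158.7, 144.1 and 173.4 CPM in OMVs and 165.8, 153.6 and 148.1 CPM in Control. The groups overlapped, with a log2 fold change of -0.05 ± 0.15 in IN@OMVs against Control (95% interval -0.39 to 0.30, adjusted p 0.913). Itga4 was highest in IN@OMVs 1 and lowest in IN@OMVs 2, so its spread was larger within IN@OMVs than between the groups. Without IN@OMVs 1 its log2 fold change against Control was -0.27 (adjusted p 0.0673 by edgeR).

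In all, 5 of the 10 genes did not overlap between IN@OMVs and Control, against 25.9% of all tested genes. Of these, 3 were lower (Itgam, Itgav and Itgb1), against 12.5% of all genes, and 2 were higher (Itgax and Itga8), against 13.3%. Between IN@OMVs and OMVs 4 did not overlap, against 17.6%: Itgam, Itgav and Itgb1 were lower, against 8.72%, and Itga8 was higher, against 8.86%. Between OMVs and Control 1 did not overlap, against 19.8%, namely Itga8, which was higher, against 9.89%. Over the 9 libraries, which share their groups, the closest pairs among the 10 genes were Itgal with Itga4 (r = 0.891 of log2 CPM), Itgam with Itgb5 (r = 0.878), Itgav with Itgb1 (r = 0.877) and Adgre1 with Itgb2 (r = 0.842). The known pairs of Itgb2 were not closest: Itgal with Itgb2 had r = 0.710. These correlations are descriptions of 9 libraries of 3 groups.

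The genes most like each sort marker and Itga8 were taken as the 3 with the highest r of log2 CPM over the 9 libraries among 10540 candidates of at least 5 CPM. For Itga8 these were Ly6a (r = 0.996), which encodes the surface protein Sca-1, Dynll1 (r = 0.992), a dynein light chain, and Irgm1 (r = 0.991), an immunity-related GTPase. Ly6a averaged 865.7 CPM in IN@OMVs, 680.4 CPM in OMVs and 493.6 CPM in Control. Dynll1 averaged 193.6 CPM in IN@OMVs, 167.7 CPM in OMVs and 142.1 CPM in Control. Irgm1 averaged 300.5 CPM in IN@OMVs, 193.7 CPM in OMVs and 131.9 CPM in Control. All 3 thus stepped down through the groups in the same order as Itga8, by smaller folds, since Itga8 differed 4.25-fold between IN@OMVs and Control. Since the 3 groups form separate clusters, these r values rest on the group order. For Itgam the closest were Igsf6 (r = 0.988), Rab32 (0.985) and Tmem268 (0.982), and for Adgre1 they were Creg2 (0.979), Kctd12 (0.972) and Tmx1 (0.971). Igsf6 averaged 180.8 CPM in IN@OMVs, 236.0 CPM in OMVs and 246.8 CPM in Control, and missed the threshold against Control as Itgam did (adjusted p 0.0803 by edgeR).

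**Figure D4:**
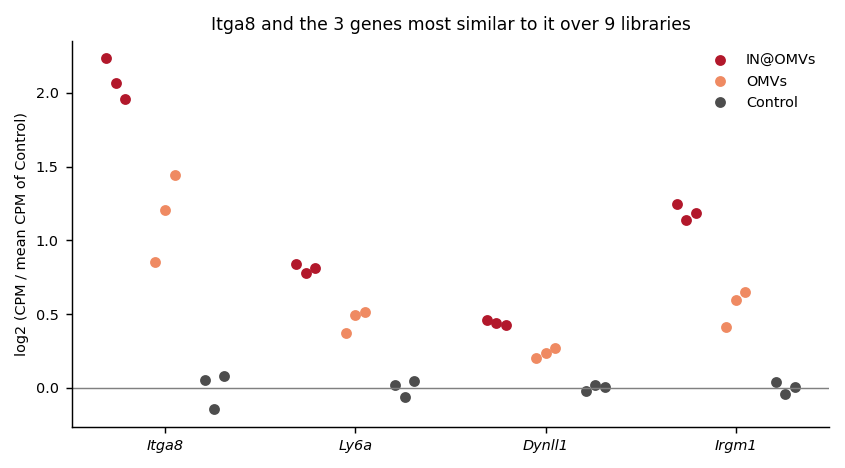
Log2 of the level relative to the mean of the 3 Control libraries for Itga8 and the 3 genes most similar to it, with IN@OMVs, OMVs and Control from left to right within each gene; points are libraries. All 4 genes are highest in IN@OMVs and intermediate in OMVs without overlap, and Itga8 spans the widest range.

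Of the 18 other integrin genes in the table, 16 were tested, and Itgad and Itgb6 were too low, at no more than 4 counts in any library. Of the 16, 0 were called higher (3.32% of all tested genes) and 2 lower (3.24%) in IN@OMVs against Control, namely Itga1 and Itgb2l. Itga1 and Itgb2l were also called lower in IN@OMVs than in OMVs, against 1.75% of all genes. The median log2 fold change of the 16 was -0.181 against Control and -0.14 against OMVs. Itga1, the α chain of a collagen receptor, had 11.3, 10.4 and 9.02 CPM in IN@OMVs, 19.7, 18.7 and 22.5 CPM in OMVs and 21.3, 14.3 and 15.7 CPM in Control. IN@OMVs lay below all other libraries, by -0.74 ± 0.16 against Control (adjusted p 0.0270 by edgeR) and -0.99 ± 0.16 against OMVs (adjusted p 0.0128), while OMVs and Control overlapped. The call against Control was lost without IN@OMVs 2 or 3 or Control 1 or 3 and in a fit of only these 2 groups, and that against OMVs without IN@OMVs 3 or OMVs 3 (adjusted p of at most 0.0991 and 0.0633). Without IN@OMVs 1, 5 of the 16 were called against Control, and 1635 genes in all in place of 858.

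Itgb2l, a β2-like chain known from mouse neutrophils, had 1, 0 and 0 counts in IN@OMVs, 13, 10 and 15 counts in OMVs and 26, 16 and 20 counts in Control. Its summed count in IN@OMVs was 0.0161 of that in Control, with an exact 95% interval of 0.0004 to 0.0928, and 0.0264 of that in OMVs, with an interval of 0.000651 to 0.156, both for counting error only. The edgeR adjusted p was 0.0013 against Control and 0.0074 against OMVs. The neutrophil marker Ly6g was low in the same libraries, at 0.123, 0.114 and 0.116 CPM in IN@OMVs, 1.32, 1.81 and 2.09 CPM in OMVs and 5.25, 3.33 and 3.63 CPM in Control, and the part of neutrophils in Itgb2l was not tested. The other integrins of at least 5 CPM on average were Itga3, Itga5, Itga6, Itga9, Itga10, Itgb3, Itgb4 and Itgb7. None of these 8 was called by edgeR in any comparison. Itga5, the fibronectin receptor α chain, was at 299.9 ± 13.4 CPM in IN@OMVs, 318.2 ± 6.53 CPM in OMVs and 339.6 ± 9.39 CPM in Control (SD, n = 3 each), with an adjusted p of 0.0888 against Control. Itga6, a laminin receptor chain, was at 121.9 ± 12.7 CPM in OMVs and 165.5 ± 12.0 in Control, with an adjusted p of 0.310. None of the 16 (0) was called in OMVs against Control by edgeR, DESeq2 or limma-voom, and 1 had an unadjusted p under 0.05 (8.44% of all genes).

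Both other EGF-TM7 receptors in the table, relatives of Adgre1, were called lower in IN@OMVs than in Control, against 3.24% of all tested genes, whereas Adgre1 was not called. Adgre4, known as FIRE in mouse myeloid cells, had 3.39, 1.77 and 1.51 CPM in IN@OMVs, 8.5, 5.6 and 7.95 CPM in OMVs and 13.5, 10.9 and 10.1 CPM in Control. The 3 groups did not overlap. It fell by 2.38 ± 0.30 on the log2 scale against Control (adjusted p 0.00198 by edgeR) and its log2 fold change against OMVs was -1.73 ± 0.30 (adjusted p 0.0183). The call against OMVs was lost without IN@OMVs 2 or 3 or OMVs 1 or 3 and in a fit of only these 2 groups (adjusted p of at most 0.0747). Adgre5, which encodes CD97, had 64.6, 34.7 and 41.8 CPM in IN@OMVs, 121, 76.6 and 95.4 CPM in OMVs and 173, 120 and 115 CPM in Control, with IN@OMVs below all other libraries. It fell by 1.53 ± 0.26 against Control (adjusted p 0.00933) and had a log2 fold change of -1.05 ± 0.26 against OMVs (adjusted p 0.0741 by edgeR). Between IN@OMVs and OMVs, DESeq2 called 2 of the 2 receptors and 646 genes in all. With the replicate number as a block edgeR called 2 and 306 in all, and limma-voom called 1 and 353 in all. Neutrophils and monocytes carry CD97 too, and their markers were lower in the same libraries, as given above. Their part in the Adgre5 level was not tested. Neither receptor (0 of 2) was called in OMVs against Control by edgeR, DESeq2 or limma-voom, and 1 had an unadjusted p under 0.05.

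**Figure D5:**
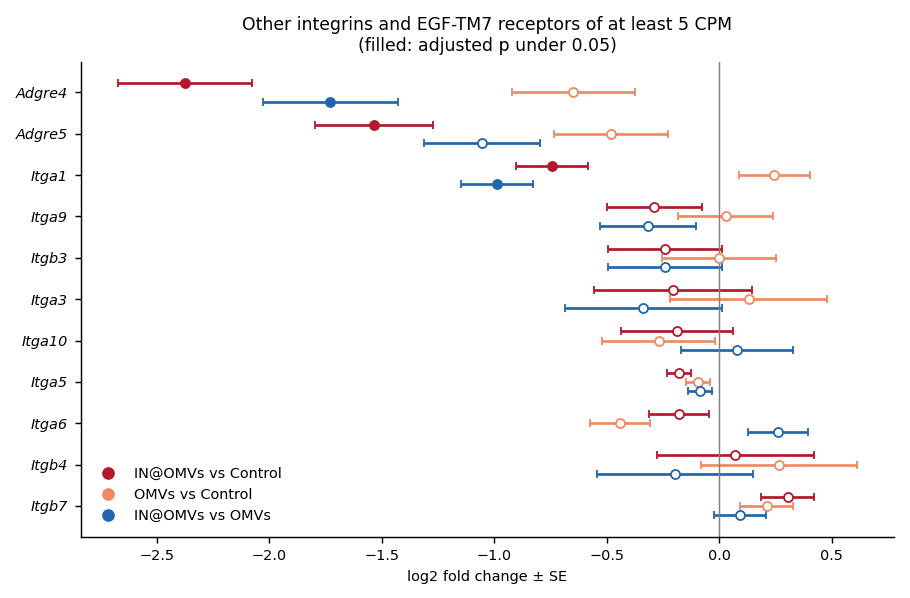
Log2 fold change with its SE for the other EGF-TM7 receptors and the other integrins of at least 5 CPM, in IN@OMVs against Control, OMVs against Control and IN@OMVs against OMVs; filled points have an adjusted p under 0.05. Adgre4, Adgre5 and Itga1 carry the filled points, all to the left of 0, and the remaining genes lie within 0.5 of 0.

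Among 8 tested ligands of the leukocyte integrins, C3, whose cleaved product iC3b is bound by Mac-1 and by the Itgax receptor, rose in OMVs against Control, where 0.298% of all tested genes were called higher. It had 1010, 857 and 868 CPM in IN@OMVs, 1170, 1190 and 1430 CPM in OMVs and 729, 789 and 783 CPM in Control, with no overlap between the groups. Its log2 fold change was 0.72 ± 0.10 in OMVs against Control (adjusted p 0.0247 by edgeR), and it was called lower in IN@OMVs than in OMVs at -0.47 ± 0.10 (adjusted p 0.0387). With the replicate number as a block the first had an adjusted p of 0.0748, and it was also lost without any single library other than IN@OMVs 1, IN@OMVs 2 or OMVs 1 (adjusted p of at most 0.160). The second was lost without any single library other than IN@OMVs 1 and in a fit of only these 2 groups (adjusted p of at most 0.141). With the replicate number as a block its adjusted p was 0.0868. Vcam1, the counter-receptor of VLA-4, had 191, 186 and 194 CPM in IN@OMVs, 241, 296 and 279 CPM in OMVs and 205, 203 and 219 CPM in Control. It was lower in IN@OMVs than in OMVs by -0.51 ± 0.08 (adjusted p 0.0081), and its log2 fold change in OMVs against Control was 0.38 ± 0.08 (adjusted p 0.102). Of the 8, 0 were called in IN@OMVs against Control by edgeR, DESeq2 or limma-voom, against 6.55% of all genes by edgeR, and 4 had an unadjusted p under 0.05 (19.8% of all genes). Icam1, the ligand of LFA-1 and Mac-1, averaged 143.9 CPM in IN@OMVs and 108.1 CPM in Control, with a log2 fold change of 0.41 ± 0.14 and an adjusted p of 0.123.

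Of 16 tested RGD and matrix ligands, 1 was called in IN@OMVs against Control, where 6.55% of all tested genes were called, and against OMVs, where 2.85% were. Thbs1, thrombospondin 1, had 722, 611 and 655 CPM in IN@OMVs, 955, 1230 and 1270 CPM in OMVs and 1540, 1300 and 1380 CPM in Control. It fell by 1.09 ± 0.12 against Control (adjusted p 0.00103 by edgeR) and its log2 fold change against OMVs was -0.80 ± 0.12 (adjusted p 0.00888), and both calls held under every alternative run. Of the 16, 0 were called in OMVs against Control by edgeR, DESeq2 or limma-voom, and 2 had an unadjusted p under 0.05 (8.44% of all genes). Fn1, fibronectin, which VLA-4 and several Itgav receptors bind, averaged 3307 ± 536.7 CPM in IN@OMVs and 4386 ± 124.4 in Control (SD, n = 3 each), with an adjusted p of 0.0654. Spp1, osteopontin, averaged 859.3 CPM in IN@OMVs and 914.3 CPM in Control, with a log2 fold change of -0.09 ± 0.08 and an adjusted p of 0.599.

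Of 28 tested integrin activators and adaptors, 1 was called in IN@OMVs against Control, against 6.55% of all tested genes, so the share was no higher than the background. Rasgrp2, an exchange factor that activates Rap1 upstream of integrins, had 3.94, 2.57 and 2.74 CPM in IN@OMVs, 6.72, 5.36 and 6.09 CPM in OMVs and 10.5, 6.49 and 6.69 CPM in Control. It fell by 1.36 ± 0.24 on the log2 scale (adjusted p 0.0117 by edgeR), and the call was lost without IN@OMVs 3 (0.0550). The talin gene Tln1, at 894 CPM in IN@OMVs and 941.4 CPM in Control, and the kindlin gene Fermt3, at 302.9 CPM in IN@OMVs and 307.2 CPM in Control, were not called, with log2 fold changes of -0.07 ± 0.09 and -0.02 ± 0.15. Of 9 integrin signalling kinases, 1 was called in the same comparison. Fgr, a Src family kinase of myeloid cells that acts downstream of β2 integrins, had 153, 108 and 116 CPM in IN@OMVs, 171, 155 and 180 CPM in OMVs and 205, 184 and 170 CPM in Control. It fell by 0.57 ± 0.13 (adjusted p 0.0339). The call was lost without any single library other than IN@OMVs 1 and in a fit of only these 2 groups (adjusted p of at most 0.122). With the replicate number as a block 2 of the 9 kinases were called, and 673 genes in all in place of 858. Without IN@OMVs 1, 6 of the activators and 3 of the kinases were called, and 1635 genes in all. Of the activators and of the kinases 0 were called in IN@OMVs against OMVs by edgeR or limma-voom. DESeq2 called 1 and 2, and 646 genes in all. In the same comparison 4 of each had an unadjusted p under 0.05 (14.4% of all genes). Of either list 0 were called in OMVs against Control by edgeR, DESeq2 or limma-voom, with 2 activators and 1 kinase at an unadjusted p under 0.05 (8.44% of all genes).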

How the data were processed

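The authors deposited 1 table of expected counts, which are estimated reads per gene in each library and were not normalised. This unit was read from the values, since 88.8% to 89.6% of them in a library were whole numbers. Per the submitters' processing notes BWA, Bowtie2 and RSEM were used, with no version, as were the builds mm9 and hg19, with no role, so the table gave no coordinates. Fractional values come from reads shared with other sequences. Itga4 had one in 1 library and the other 9 genes had none.

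The values were rounded to whole numbers and fitted with edgeR 4.0.16 in R 4.3.3, using TMM scaling, the filterByExpr filter by group, 1 mean per group over all 9 libraries and the quasi-likelihood test. Adjustment followed Benjamini and Hochberg over the 13090 genes tested in a comparison, with a threshold of 0.05. CPM is the rounded count per 1000000 counts in tested genes, with the library scaled by its TMM factor. SE was the log2 fold change divided by the root of the F statistic. Levels per kilobase used transcript lengths of the mouse GENCODE annotation. The genes and the lists beside them were chosen with earlier results of these data known. Genes past the threshold in a list were named, at most 4 per list and comparison, with all other integrins of at least 5 CPM. Icam1, Fn1, Spp1, Tln1 and Fermt3 were added after their values were seen.

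Alternatives were DESeq2 1.42.0, limma-voom (limma 3.58.1), other size factors, other filters, unrounded values, only the 2 groups compared, a replicate block and each library left out in turn. Libraries of the same replicate number correlated positively in their deviations between OMVs and Control (0.533, 0.375 and 0.121). The same held between IN@OMVs and Control (0.454, 0.309 and 0.147). This was taken as pairing from the values alone. Only number 1 stood apart, with negative correlations to numbers 2 and 3 of the other group. OMVs 2 and Control 3 reached 0.35, and OMVs 3 and Control 2 reached 0.0768. IN@OMVs 2 and Control 3 reached 0.361, and IN@OMVs 3 and Control 2 reached 0.293. Pairing of numbers 2 and 3 was therefore not shown by these values. Between IN@OMVs and OMVs, libraries of the same number did not deviate together (0.0750, 0.508 and -0.373). No pair of libraries agreed within sampling noise. The fit was tested on simulated data: for IN@OMVs against Control, with 13014 genes, it called 74.6% of genes altered 1.5-fold, 91% at 2-fold and 100% at 4-fold, and 8 of its 185 calls were false. The altered genes were drawn from those of at least 5 CPM, with a spread set by expression level alone. No simulated library stood apart as IN@OMVs 1 did, so these shares may be too high for the real data.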

Additional observations from a re-analysis of the deposited data

How the results depend on the processing

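Over the 10 genes, 3 comparisons and 18 alternatives, 494 values kept their direction and their side of the threshold, 14 newly passed it, 16 no longer passed it and 16 changed sign, and the cause was not tested. Signs changed only where 1 library was left out of genes that were not called. With 1 library left out in turn, their log2 fold changes for IN@OMVs against Control ran from -0.294 to 0.00634 for Adgre1 (above 0 without IN@OMVs 2), from -0.272 to 0.0812 for Itga4 (without Control 1, IN@OMVs 2 or IN@OMVs 3), from -0.375 to 0.0434 for Itgal (without Control 1 or IN@OMVs 2) and from -0.0854 to 0.0400 for Itgb2 (without Control 1, IN@OMVs 2 or IN@OMVs 3). For IN@OMVs against OMVs they ran from -0.325 to 0.0275 for Adgre1 (above 0 without OMVs 3) and from -0.295 to 0.0545 for Itga4 (without IN@OMVs 2). For OMVs against Control they ran from -0.133 to 0.126 for Adgre1 (below 0 without Control 1 or OMVs 3), from -0.0419 to 0.0915 for Itga4 (without Control 3 or OMVs 3) and from -0.00440 to 0.157 for Itgax (without OMVs 3). Of the 10 genes 1 was called for IN@OMVs against Control, but 3 with DESeq2, 3 with a filter of 5 CPM, 2 with limma-voom, 4 without library 1 of all 3 groups (chosen after the data had been seen) and 1 to 3 with 1 library left out. Between IN@OMVs and OMVs 1 was called, but 2 with DESeq2, 0 with only the groups compared, 0 with the replicate block (Itga8 adjusted p 0.0584), 3 without library 1 of all groups and 0 to 2 with 1 library left out. Between OMVs and Control 1 was called, but 0 with limma-voom, 0 with the replicate block and 0 to 1 with 1 library left out. Of all genes, 858 were called in IN@OMVs against Control, with 519 from only the groups compared, 1475 without library 1 of all groups and 393 to 1635 with 1 library left out. Between IN@OMVs and OMVs 373 were called, with 646 by DESeq2, 195 from only the groups compared, 844 without library 1 of all groups and 180 to 786 with 1 left out. Between OMVs and Control 55 were called, with 207 by DESeq2, 36 by limma-voom, 115 from only the groups compared, 20 with the replicate block, 313 without library 1 of all groups and 0 to 266 with 1 left out. The replicate block changed no other call among the 10 genes. The differences in log2 ratio moved by less than the spread between replicates. Relative counting error was largest for Itga8, at 32 to 158 counts.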
